A study of Rattus norvegicus with 18 samples.

Results

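A stretch of rat chromosome 20 from 11 to 13.2 Mb (rn6, first base 11000001, last base 13200000) was described rat by rat from hippocampal DNA methylation. The stretch was chosen from measured values of these same samples, because windows in it stood apart in kindling rats. Comparisons of kindling sham rats with other rats are therefore given as a description, with no test. Of 2330883 cytosines measured genome-wide, 5638 lay in the stretch, and of 151450 windows of 1000 bp with at least 3 measured cytosines, 403 did. The assay was reduced representation bisulfite sequencing (RRBS), which samples CpG-rich fragments cut at MspI sites and reads unmethylated cytosines as thymine. A level is the share of reads that kept the cytosine, in percent, and a difference between levels is given in percentage points.

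All 18 animals were adult male Sprague-Dawley rats, an outbred strain, and DNA came from the left hippocampus. In the kindling model, electrodes in the hippocampus deliver repeated stimulation until seizures generalise, and this model gave 4 sham and 4 seizure rats. The other model, which gave 7 sham and 3 seizure rats, implants electrodes and then injects kainic acid, an agonist of glutamate receptors, in rising doses until status epilepticus begins. Seizure rats of either model are labelled 3 Class V, and tissue was taken 24 hours after the last seizure. The sources used here do not say what the sham rats underwent or which rats were littermates. A whole hippocampus mixes neurons, glia and vascular cells, so a level is an average over cell types. The p-values below set a difference or a correlation against the variation among these 18 samples. For the mean level only the kainic acid rats were used.

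CpG methylation is copied to both DNA strands by maintenance methyltransferases, so the strands of a CpG usually carry the same level. CpG-rich promoters of active genes are mostly unmethylated, while CpGs between genes and inside gene bodies are mostly methylated. In this assay a cytosine that is a thymine in an animal's own DNA also reads as unmethylated. The DNA sequence of the rats was not analysed here, so a difference in sequence and a difference in methylation cannot be told apart at any CpG below.

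The genome build of the table (rn6) came with no annotation here, so genes were placed by the spacing of measured CpGs in promoter sequences of RefSeq (GRCr8). Of 33469 promoter windows searched, 14 windows of 13 genes matched the stretch with 9 to 47 CpGs, and all 13 genes lay on chromosome 20 in the GRCr8 order. From left to right they were Pwp2, Gatd3a, Icoslg, Trpm2, Ube2g2, Sumo3, Pttg1ip, Slx9, Pofut2, Slc19a1, Lss, Ybey and Pcnt. Trpm2 encodes a calcium-permeable cation channel opened by ADP-ribose and oxidative stress, and its start was placed at 11434106. Slx9 encodes a ribosome biogenesis factor, Pofut2 an enzyme that adds fucose to secreted proteins, and Pcnt the centrosome scaffold pericentrin. Their starts were placed at 11863145, 12128747 and 12944741. In GRCr8 the gap between Slx9 and Pofut2 holds Adarb1, which encodes an RNA-editing enzyme of glutamate receptor transcripts. The gap between Pofut2 and Slc19a1, the reduced folate carrier gene, holds Col18a1, and the gap from Slc19a1 to Lss, the lanosterol synthase gene, holds Pcbp3, Col6a1, Col6a2, Ftcd and Spatc1l. To the right of Pcnt lie Dip2a, S100b (an astrocyte calcium-binding protein), Prmt2 and Slc5a4.

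The 250 bases before the start of 4 of these genes are shown because several of the CpGs described below lie inside or beside these genes while the promoters themselves were low in every rat. Other such CpGs lie far from them, in the gaps from Gatd3a to Icoslg and from Slc19a1 to Lss. Bases run 5′ to 3′ on the gene's own strand, from RefSeq (GRCr8), and capitals mark the CpGs measured here.
Trpm2 (chr20:11433856-11434105, plus strand): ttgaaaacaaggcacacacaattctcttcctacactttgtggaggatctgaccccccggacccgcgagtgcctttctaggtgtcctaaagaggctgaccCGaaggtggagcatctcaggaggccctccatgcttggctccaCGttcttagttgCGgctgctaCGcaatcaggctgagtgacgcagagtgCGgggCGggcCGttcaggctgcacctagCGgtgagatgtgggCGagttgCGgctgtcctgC
Slx9 (chr20:11862895-11863144, plus strand): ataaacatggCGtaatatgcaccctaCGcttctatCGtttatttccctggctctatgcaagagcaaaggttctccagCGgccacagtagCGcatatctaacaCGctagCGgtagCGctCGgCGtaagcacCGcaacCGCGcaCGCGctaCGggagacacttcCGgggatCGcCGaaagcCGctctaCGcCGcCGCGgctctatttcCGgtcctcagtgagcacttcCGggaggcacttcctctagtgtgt
Pofut2 (chr20:12128748-12128997, minus strand): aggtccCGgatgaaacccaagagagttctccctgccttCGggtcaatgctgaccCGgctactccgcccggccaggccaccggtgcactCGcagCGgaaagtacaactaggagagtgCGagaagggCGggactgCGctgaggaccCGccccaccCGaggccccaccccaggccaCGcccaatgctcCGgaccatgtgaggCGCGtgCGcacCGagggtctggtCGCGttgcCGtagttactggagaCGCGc
Pcnt (chr20:12944491-12944740, plus strand): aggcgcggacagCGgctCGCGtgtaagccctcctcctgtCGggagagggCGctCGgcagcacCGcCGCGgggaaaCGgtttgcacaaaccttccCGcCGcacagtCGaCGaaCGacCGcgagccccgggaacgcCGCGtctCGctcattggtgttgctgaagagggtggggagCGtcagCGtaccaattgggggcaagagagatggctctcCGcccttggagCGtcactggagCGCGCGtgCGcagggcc

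Across the 31 measured cytosines of the Trpm2 promoter window (the bases above and 50 bases past the start), rats had mean levels from 0.111 to 5.57%, with a median of 0.657%. The Slx9 window of 53 cytosines ran from 5.34 to 9.04%, the Pofut2 window of 43 cytosines from 11.5 to 14.8%, and the Pcnt window of 54 cytosines from 0.385 to 2.53%. At Trpm2 kindling sham rats averaged 2.89% ± 2.13 (SD, n = 4), and the sham rats of the kainic acid model averaged 1.30% ± 1.09 (SD, n = 7), a difference within the spread. Among all 14 promoter windows the highest median was 20.1%, at Lss, and the widest range of a single cytosine over the rats was 24.0 points, also at Lss. No rat had more than 21.7% in any placed promoter window, and the large differences described next lay outside them.

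Levels in the stretch were somewhat higher than genome-wide and more variable. Of its cytosines 36.1% had a mean level under 10% and 36.1% a mean above 90%, against 48.1% and 28.6% in the whole table. A range over the 18 rats of at least 30 points was found in 15 of 403 windows (3.72%), against 1.62% of windows genome-wide. At single cytosines a range of at least 60 points was found at 93 of 5638 (1.65%), against 0.554% genome-wide. The windows nearest to each end had narrow ranges, although the last 100 kb inside held 3 of the cytosines with a range of at least 60 points. The first window inside it (start 11028001) ran from 98.2 to 100% and the last window outside on the left (start 10994001) from 95.3 to 97.0%, while the last window inside on the right (start 13160001) ran from 89.7 to 96.8% and the next one outside (start 13200001) from 98.6 to 100%.

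The mean level over the stretch hid these differences. It was 53.3, 52.2, 53.1 and 52.7% in kindling sham rats 1 to 4, and 52.8% ± 0.512 (SD, n = 4) as a group. Kindling seizure rats averaged 53.3% ± 0.492 (SD, n = 4). The kainic acid sham group averaged 53.1% ± 0.256 (SD, n = 7), and the seizure group of that model 53.2% ± 0.112 (SD, n = 3). Seizure minus sham in that model came to 0.174 points (two-sided exact permutation p = 0.35, smallest possible p 0.0167). This was less than the SD of its sham rats and more than that of its seizure rats.

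Rats differed in how far they stood from the others. Over the 234 windows with a range of at least 5 points, the mean distance of a rat's level from the median of all rats was 2.41, 5.08, 3.69 and 3.60 points in kindling sham rats 1 to 4. The other 14 rats and sham rat 1 ran from 1.96 to 3.32 points. Sham rat 2 was thus the farthest animal in the stretch, sham rats 3 and 4 came next, and sham rat 1 lay among the others. Genome-wide the same measure gave 2.40, 2.63, 3.04 and 3.07 points in kindling sham rats 1 to 4. Sham rat 2 had 1.93 times its genome-wide distance here, sham rat 3 had 1.21 times and sham rat 4 had 1.17 times, against 0.875 to 1.25 times in the other 15 rats. Sham rat 4 also had the highest share of exact zeros genome-wide, 25.4%, while sham rats 2 and 3 had 17 and 18.1%, inside the 8.89 to 20.7% of the other 15 rats. The part of the zero share in these distances was not tested. Sham rat 2 was the farthest of all rats from the median in 42 of the 234 windows (17.9%), against 6.03% of variable windows genome-wide.

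**Figure D1:**
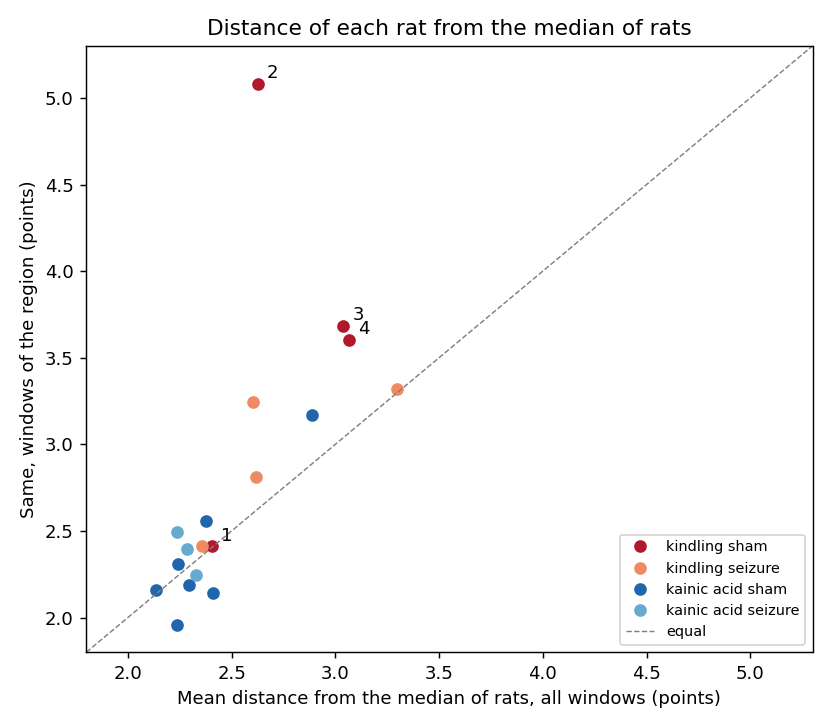
Mean distance of each rat from the median of the 18 rats, in percentage points, over variable windows genome-wide (x axis) and in the stretch (y axis), with 1 point per rat, coloured by group, and numbers on the kindling sham rats. Kindling sham rat 2 sits at 5.08 points in the stretch and 2.63 genome-wide, far above the dashed line of equal values.

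Kindling sham rats did not form a tight group. The mean absolute difference between pairs of kindling sham rats over these windows was 4.51 to 5.70 points, while pairs among the 15 rats other than sham rats 2 to 4 differed by 2.69 to 5.50 points. Sham rat 1 was 4.89 to 5.19 points from the rest of its group and 2.70 to 4.83 points from the rats of other groups. The closest pair of all was kindling seizure rats 1 and 2, at 2.69 points. Sham rat 2 differed by 5.19, 5.42 and 5.70 points from sham rats 1, 3 and 4 and by 5.20 to 7.36 points from the rats of other groups, so its nearest rat was sham rat 1. Kindling sham rats are therefore described animal by animal below rather than by their mean alone.

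Windows that set kindling sham rats apart were more frequent here than in the genome as a whole, as the choice of the stretch implies. The mean of the 4 sham rats was 10 points or more from that of the other 14 rats in 10 of 403 windows, 5 higher and 5 lower, against 0.25% of all windows. With sham rat 1 placed among the others, the mean of sham rats 2 to 4 was 10 points or more away in 17 windows, 4 higher and 13 lower, against 0.477% genome-wide. All 4 sham rats lay outside the range of the other 14 in 1 of the 234 variable windows (0.0957% genome-wide). Sham rats 2 to 4 lay outside the range of the other 15 in 11, 3 higher and 8 lower (0.421% genome-wide). Without sham rat 2, the 10 windows became 6 and the 17 became 11, and without sham rat 1 the 10 became 16. The 17 windows were spread from 11277001 to 13154001, over nearly the whole stretch.

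**Figure D2:**
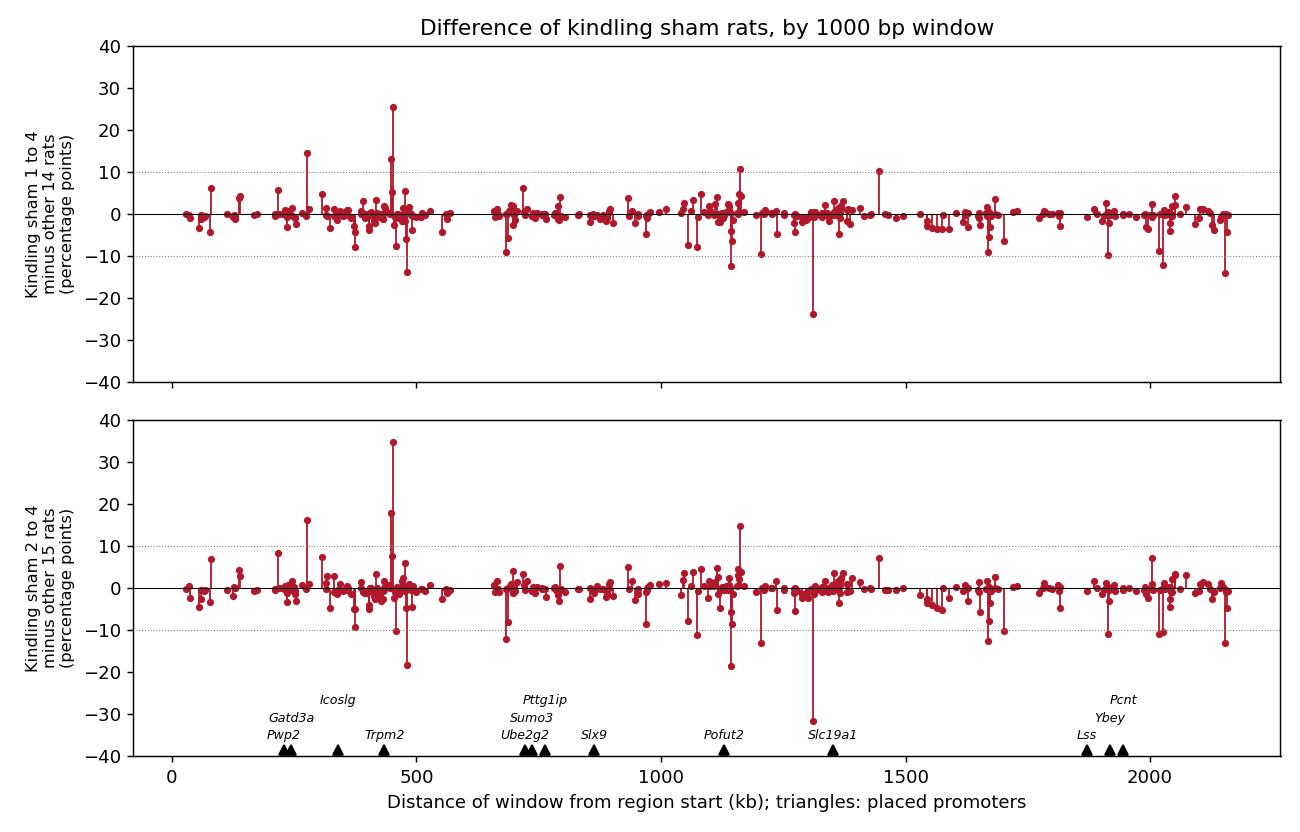
Difference of kindling sham rats from the other rats for each of the 403 windows, in percentage points, against distance from the start of the stretch in kb. The upper panel takes sham rats 1 to 4 against 14 rats, the lower panel sham rats 2 to 4 against 15, dotted lines mark 10 points, and triangles mark the placed promoters. Single windows reach 34.8 points higher (beside Trpm2) and 31.7 points lower (left of Slc19a1), with windows near 0 between them.

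The window with the largest such difference lay inside the GRCr8 length of Trpm2 (start 11452001, end 11453000, 4 cytosines). Kindling sham rats 1 to 4 had 46.9, 89.8, 89.6 and 72.0%, kindling seizure rats 47.3, 49.0, 50.1 and 48.3%, and kainic acid seizure rats 46.2, 67.8 and 49.8%. The kainic acid sham group ran from 44.6 to 48.5% with a median of 47.7%. Sham rats 2 to 4 were all above every other animal, kainic acid seizure rat 2 came next below them, and sham rat 1 was among the rest. As a group kindling sham rats averaged 74.6% ± 20.3 (SD, n = 4) and the others 49.1% ± 5.61 (SD, n = 14), a difference of 25.5 points.

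The second window lay between Pofut2 and Slc19a1, in the gap that holds Col18a1, the gene of the basement membrane collagen XVIII (start 12311001, end 12312000, 4 cytosines). Kindling sham rats 1 to 4 had 94.6, 49.5, 67.2 and 72.3%, and kindling seizure rats 96.0, 94.2, 94.8 and 93.6%. Sham rats of the kainic acid model ran from 92.2 to 96.0% with a median of 94.9%, and kainic acid seizure rats had 95.3, 95.1 and 94.3%. Here sham rats 2 to 4 were below all 15 others. Kindling sham rats averaged 70.9% ± 18.6 (SD, n = 4) and the other 14 rats 94.7% ± 1.09 (SD, n = 14), a difference of -23.8 points.

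The other windows with a large difference of the 4 sham rats lay along the whole stretch. At 11447001 in Trpm2 sham rats 1 to 4 had 72.0, 94.2, 93 and 84.0%, against a mean of 72.6% ± 2.84 (SD, n = 14). At 11480001, near the right end of Trpm2, they had 87.4, 50.2, 68.3 and 89.9%, against 87.7% ± 1.40 (SD, n = 14), so sham rats 2 and 3 alone were low, and the difference of -13.8 points was -5.83 without sham rat 2. At 11277001, between Gatd3a and Icoslg, their mean of 95% ± 5.13 (SD, n = 4) stood beside 80.4% ± 12.8 (SD, n = 14), and the groups overlapped. At 12144001, upstream of Pofut2, they had 79.6, 58.0, 66.7 and 43.3%, against 74.2% ± 6.87 (SD, n = 14), and the difference of -12.4 points was -6.18 without sham rat 4. The windows at 13026001 and 13154001, described with the kainic acid contrast below, were different by -12.1 and -13.9 points.

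For sham rats 2 to 4 alone 4 further windows are given. At 11683001, in the gap with the keratin-associated protein genes, sham rats 1 to 4 had 88.6, 69.1, 79.3 and 79.4%, and the mean of sham rats 2 to 4 differed from that of the other 15 by -12.2 points. At 12205001 and 12668001 it differed by -13.1 and -12.5 points, and at 12161001, upstream of Pofut2, it was 14.8 points higher. The last of these rested on sham rat 2 (89.9%), since sham rats 3 and 4 (63.8 and 70.9%) lay within the range of the others, and without sham rat 2 it was 7.24 points. At 12205001, in the gap of Col18a1, sham rats 1 to 4 had 91.1, 71.5, 81 and 78.8%. Sham rat 1 was with the other rats in both windows whose values are given here.

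In most of these windows the difference sat at single CpGs. Of the 17 windows in which sham rats 2 to 4 differed by 10 points or more, 15 held a cytosine with a range of at least 60 points. The 2 without such a cytosine, at 12074001 and 12914001, differed by -11.2 and -10.9 points. With the wide CpGs left out of the other 15, the median size of the difference went from 13.2 to 1.09 points, and in 0 of the 15 did it stay at 10 points or more. Leaving out the widest CpGs lowers such a difference by construction, so this shows where in the window it lay and no more. In the window at 12311001 the 2 CpGs had cytosine ranges from 5.56 to 96.5 points. In the window at 11452001 they ran from 11.7 to 87.8 points. Around all wide CpGs, 212 of 264 neighbouring cytosines within 100 bp (80.3%) had a range under 30 points, with a median range of 13.5 points.

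The 93 wide cytosines belonged to 63 CpGs. Both strands were measured at 40 of these, and both were wide at 30, where the strands of a CpG differed by a mean of 5.41 points in a rat. The number of wide cytosines per 100 kb was highest from 11400001 to 11500000, which holds the Trpm2 start (20 of 93). Next came 12100001 to 12200000, which holds that of Pofut2 (14 of 93). These spans also held the most windows with a range of at least 5 points (32 and 24). The counts are thus not rates per measured cytosine. Of the 1674 values, 16.4% were under 20%, 33.9% between 30 and 70%, and 39.2% above 80%, which left 3.52% between 20 and 30% and 6.93% between 70 and 80%. Cytosines of the same range genome-wide had 20.2%, 42.4% and 24.9% in the 3 main bands and 5.11% and 7.43% in the bands between them. Kindling sham rat 2 held the lowest level of all rats at 43 of the 93 and the highest at 12, and kindling seizure rat 3 the lowest at 13 and the highest at 11. Kindling sham rat 1 had 35.5% of its levels at these cytosines between 15 and 35% or between 65 and 85%, against 16.1 to 30.1% in the other rats, and 39% at such cytosines genome-wide, against 23.7 to 29.9%. Whether this library holds the DNA of only 1 rat was not tested, and each level of sham rat 1, here and in the windows above, carries that limit.

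**Figure D3:**
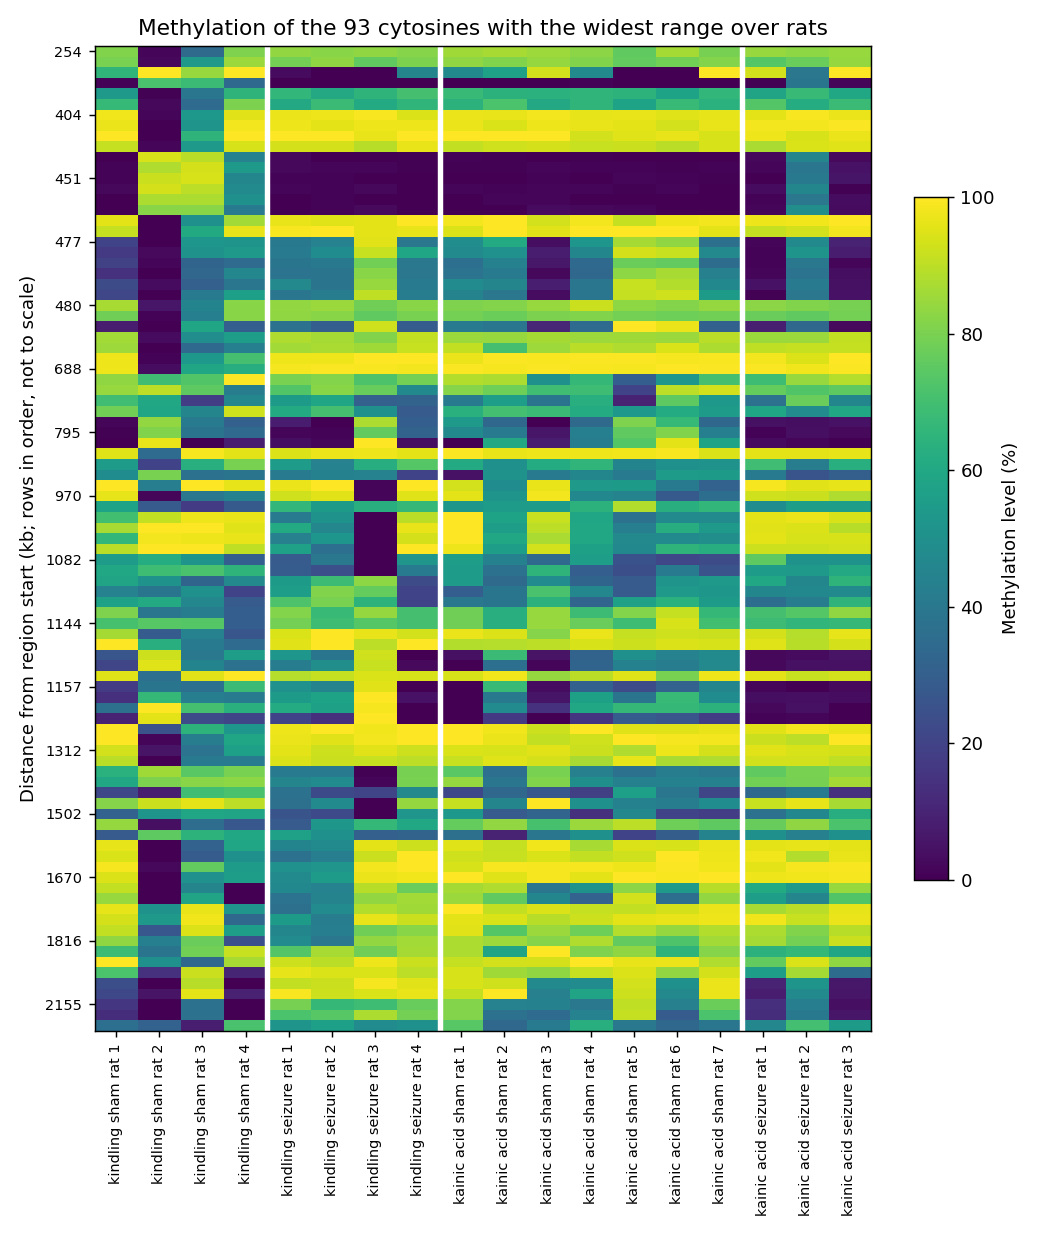
Methylation level (colour, 0 to 100%) of the 93 cytosines with a range of at least 60 points, in rows by position from left to right end of the stretch, with 1 column per rat and white lines between groups. Kindling sham rat 2 is dark in many rows where the columns outside its group are light, with kindling sham rat 3 and often rat 4 midway, and other rows split the rats across groups.

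Grouped by their profile over the rats (average linkage on correlation, a grouping added after seeing the data), 67 of the 93 wide cytosines fell into 8 groups of at least 4. The largest held 27 cytosines at 15 CpGs from 11253715 to 12311512, a span of 1058 kb, with a mean absolute correlation of 0.898 over the 18 rats. These correlations describe a set picked for its spread. At 20 of the 27, kindling sham rats 1 to 4 averaged 88.5, 2.82, 48.4 and 74.3%, while kindling seizure rats had 88.2 to 90.4% and kainic acid sham rats 88.0 to 89.8%. At the other 7 the direction was opposite. There sham rats 1 to 4 averaged 0.743, 86.9, 86.5 and 45.4%, kindling seizure rats were at 0.183 to 0.993% and kainic acid sham rats at 0.253 to 1.08%, and kainic acid seizure rats had 1.5, 42.8 and 3.07%.

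Trpm2 carried both directions. The start was placed at 11434106 on the plus strand, and RefSeq gives the gene a length of 49606 bp in GRCr8, so CpGs up to 45.9 kb past the start fall inside that length if it is the same in rn6. At the CpG at 11447246 (chr20:11447246-11447247, mean of both strands here and below), 13.1 kb past the start, kindling sham rats 1 to 4 had 0.670, 90.9, 91.6 and 49.3%. Kindling seizure rats had 2.13, 0.806, 0.588 and 0.641%, kainic acid sham rats 0.422 to 0.792% with a median of 0.493%, and kainic acid seizure rats 2.10, 42.5 and 3.65%. The CpGs at 11450691 and 11452668, 16.6 and 18.6 kb past the start, set the same rats apart, with 92.8 and 84.9% in sham rat 2, 92.0 and 85% in sham rat 3, 46.8 and 45.8% in sham rat 4 and 43.2 and 44.5% in kainic acid seizure rat 2. At these 3 CpGs every other rat stayed at or under 3.65%, so sham rats 2 and 3 were nearly fully methylated where 13 rats and sham rat 1 were nearly unmethylated.

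Farther along Trpm2 kindling sham rats 2 and 3 were low. At 11480020, 45.9 kb past the start, kindling sham rats 1 to 4 had 82.6, 3.51, 44.1 and 82.2%, and kindling seizure rats 83.6, 83.7, 77.0 and 81%. Kainic acid sham rats ran from 79.6 to 86.5% with a median of 81.1%, and kainic acid seizure rats had 79.9, 78.3 and 79.2%. Sham rat 2 was near 0, sham rat 3 about midway and sham rat 4 with the others. The same pattern was seen left of Trpm2, at 11253715 (9.36 kb right of the Gatd3a start) and at 11403743 (30.4 kb left of the Trpm2 start). At 11403743 sham rats 1 to 4 had 97.5, 0.719, 52.6 and 96.8% and the other 14 rats 94.2 to 98.6%.

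Sham rat 4 joined sham rat 3 at midway levels farther right. At 11688412, in the gap between Trpm2 and Ube2g2 that holds a keratin-associated protein cluster in GRCr8, sham rats 1 to 4 had 97.4, 2.02, 55.9 and 66.4%, and all other rats 96.3 to 99.6%. At 12205434 they had 100, 13.7, 53.5 and 55.9%, against 91.6 to 100% in the others, and at 12311511 they had 91.4, 2.57, 39.8 and 49.1%, against 89.5 to 95.3%. At 12145590, 16.8 kb from the Pofut2 start, sham rats 2 to 4 were all midway or lower, with 46.1, 43.1 and 30.8%, 93.3% in sham rat 1 and 85.9 to 100% in the other 14 rats. At these 4 CpGs, picked after their values were seen, sham rats 2 to 4 did not overlap the other 15 animals. No share over all CpGs is given, so this describes the 4 CpGs and no more.

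**Figure D4:**
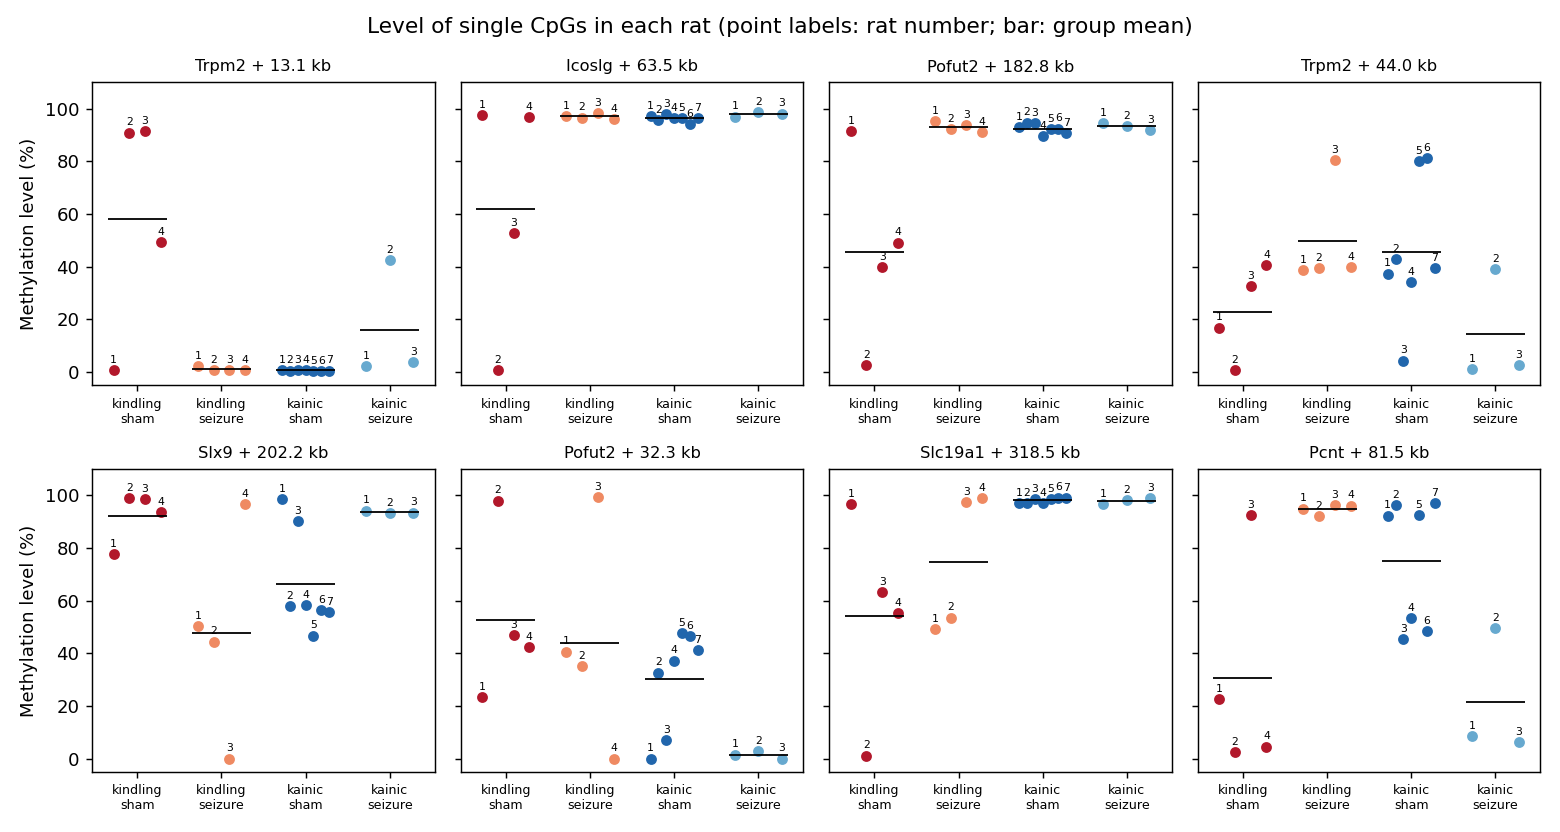
Level of 8 CpGs in each rat (mean of both strands, %), by group, with the rat's number at each point and a bar at the group mean. Panel titles give the nearest placed promoter on the left and the distance from it. In the first 3 panels kindling sham rats 2 to 4 or 2 and 3 stand apart, and in the others the levels of kindling seizure or kainic acid rats split as well.

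The other groups of CpGs also split rats outside the kindling sham group, and which groups were split varied. The second group, 7 cytosines at 4 CpGs over 75.4 kb (11477122 to 11552543), started near the right end of Trpm2. At 11478097 kindling sham rats 1 to 4 had 16.8, 0.694, 32.6 and 40.6% and kindling seizure rats 38.6, 39.4, 80.3 and 39.9%. In the kainic acid model sham rats ran from 4.25 to 81.3% with a median of 39.5%, and kainic acid seizure rats had 1.02, 39 and 2.62%. High levels were found in kindling seizure rat 3 and kainic acid sham rats 5 and 6, and low ones in kindling sham rat 2, kainic acid sham rat 3 and kainic acid seizure rats 1 and 3. The 4 groups overlapped at this CpG.

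The third group, 5 cytosines at 4 CpGs from 11794847 to 11969822, began left of Slx9 and reached into the gap that holds Adarb1. At 11869018, 5.87 kb past the Slx9 start and inside its GRCr8 length of 32899 bp, sham rats 1 to 4 had 0, 96.7, 0 and 7.69% and kindling seizure rats 3.70, 1.89, 100 and 3.85%. Levels of kainic acid sham rats ran from 0 to 95.8% with a median of 58.2%, and kainic acid seizure rats had 3.03, 1.82 and 0%. At 11969821 those 2 kindling rats, sham rat 2 and seizure rat 3, were the lowest, with 1.59% in kindling sham rat 2, 1.67% in kindling seizure rat 3. Kindling sham rats 3 and 4 had 39.6 and 43.8%, and kainic acid sham rats ran from 28.1 to 98.3% with a median of 46.8%. Kainic acid seizure rats had 87.9 to 92.9%, and kindling sham rat 1 and the other kindling seizure rats 93 to 96.2%. Only 1 strand was measured at these 2 CpGs.

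The fourth group held 9 cytosines at 6 CpGs over 437 kb (12065307 to 12501875), on either side of Pofut2 and Slc19a1. At 12065322, 63.4 kb from the Pofut2 start, kindling sham rats had 77.8, 99.1, 98.7 and 93.6%, and kindling seizure rats 50.3, 44.5, 0 and 96.8%. Kainic acid sham rats ran from 46.8 to 98.7% with a median of 58.0%, and kainic acid seizure rats had 94.2, 93.2 and 93.4%. Kindling seizure rat 3 was alone at 0, and 7 rats lay between 44.5 and 58.4%. The mean of sham rat 1 lay between these and the rest, but its strands were unlike, at 66.1 and 89.5%. At 12367784, 16 kb right of the Slc19a1 start, kindling seizure rat 3 had 1.08% and sham rat 1 had 61.8%.

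The fifth group held 5 cytosines at 3 CpGs within 3.82 kb, upstream of Pofut2, which is read on the minus strand. At 12161044, 32.3 kb from the start, kindling sham rats had 23.3, 98.0, 46.8 and 42.3% and kindling seizure rats 40.7, 35.2, 99.4 and 0%. The strands disagreed at this CpG, with 70.6 and 23.1% in sham rat 3 and 63.6 and 21.1% in sham rat 4, so its midway levels are averages of unlike strands. Its mean strand difference was 23.6 points, against 1.33 to 7.91 points at the other 18 CpGs named with both strands, where a single rat reached up to 33.8 points (sham rat 2 at 12145590). Kainic acid sham rats ran from 0 to 47.8% with a median of 37.2%, and kainic acid seizure rats had 1.56, 2.85 and 0%. All 3 kainic acid seizure rats were thus low, along with kainic acid sham rats 1 and 3 and kindling seizure rat 4.

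In the gap between Slc19a1 and Lss the sixth and seventh groups joined kindling sham rats with kindling seizure rats 1 and 2. At 12670271 kindling sham rats had 96.8, 1.11, 63.2 and 55.4%, and kindling seizure rats 49.1, 53.6, 97.6 and 99%. All 10 kainic acid rats lay between 96.6 and 99.1% there. At 12815682, 54.8 kb from the Lss start, midway levels were found in kindling sham rats 2 and 4 (52.4 and 42.7%) and kindling seizure rats 1 and 2 (45.8 and 45.3%), while all other rats had 88.8 to 98.0%. At 12701877 between them, kindling sham rats 2 and 4 were at 0, kindling sham rat 3 was at 51.9%, and kainic acid sham rats also split, from 41.4 to 87.9%.

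The eighth group, 5 cytosines at 3 CpGs over 136 kb (13018754 to 13154839), began inside the GRCr8 length of Pcnt (88413 bp) and ended in the part that holds Dip2a, S100b, Prmt2 and Slc5a4 in GRCr8. At 13026244, 81.5 kb past the Pcnt start, kindling sham rats 1 to 4 had 22.7, 2.56, 92.6 and 4.55% and kindling seizure rats 95, 92.2, 96.4 and 96.1%. The kainic acid sham group ran from 45.5 to 97.2% with a median of 92.4%, and kainic acid seizure rats had 8.59, 49.6 and 6.26%. Sham rats 1, 2 and 4 were low here and sham rat 3 was not. At 13154838, kindling sham rats had 14.4, 0, 37.6 and 0%, kindling seizure rats 75.6, 70.4, 78.2 and 77.9%, and kainic acid seizure rats 13.2, 41.6 and 5.11%, while kainic acid sham rats ran from 36.4 to 90.8%.

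Windows whose level moved together over the 18 rats were then sought among the 78 windows with a range of at least 15 points. Average linkage on 1 minus the absolute Pearson correlation, with the tree divided at a height of 0.5, gave 6 blocks of at least 5 windows that took in 53 of the 78. The blocks interleaved along the chromosome, with spans of 699 to 2087 kb, so neighbours in a block were often separated by windows of another. Correlations are over the same 18 libraries and are given as a description.

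The first block held 15 windows from 11375001 to 12915000, with the window at 12311001 as its lead (the highest mean correlation) and a mean absolute r of 0.689. In 13 the level followed the lead and in 2, those at 11447001 and 11452001 in Trpm2, it ran opposite. Kindling sham rats 2 to 4 had the lowest mean profile of the 18 rats in this block, and without sham rat 2 the block of the same lead held 7 windows. With rank correlation the lead fell in no block. Of the other 77 windows of the stretch with this range, 9 (11.7%) had an absolute r of at least 0.8 with the lead. The same held for 4 of 683 on the rest of chromosome 20 (0.586%) and 15 of 19968 on other chromosomes (0.0751%). The stretch was chosen from these values, and each lead for its correlation with windows of the stretch. These choices favour a higher share inside than outside, so nothing is read from that difference.

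The second block, 12 windows was led by the window at 12120001. Its lead had no other window of the stretch at an absolute r of 0.8 or more, but 33 of 683 on the rest of chromosome 20 (4.83%) and 784 of 19968 elsewhere (3.93%) reached it. Kindling sham rats had 81.3, 75.1, 69.1 and 69.1% at the lead, kindling seizure rats 80.2, 83.5, 81.5 and 66.1%, and kainic acid seizure rats 81.9, 72.1 and 73.0%. The mean profile of this block correlated with each library's share of exact zeros genome-wide (Pearson's r = -0.69, permutation p = 0.0016, Benjamini-Hochberg adjusted p = 0.0192 over the 12 relations computed, 18 rats). Spearman's rho was -0.56 (permutation p = 0.0183, adjusted p = 0.212), and r without the 2 libraries farthest from the median zero share was -0.48. The profiles of the other 5 blocks had an r of -0.45 to 0.04 with the zero share (adjusted permutation p of 0.217 or more).

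**Figure D5:**
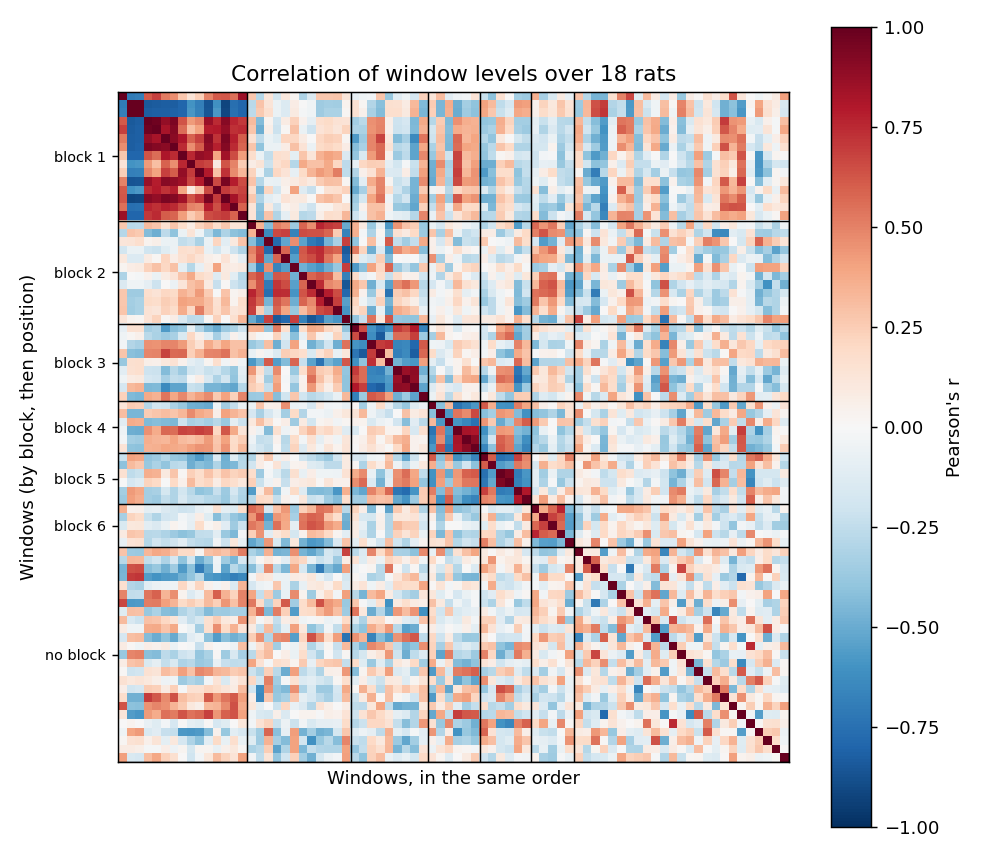
Pearson's r over the 18 rats between the levels of 78 windows, ordered by block and then by position, from -1 (blue) to 1 (red). The first block stands out as a red square with a pair of opposite windows in blue, and the last rows and columns are the 25 windows in no block.

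The third block (9 windows, lead 12161001, mean absolute r 0.628) joined the windows at 11794001, 11869001 and 11969001 with those at 12157001 and 12158001. Its lead had 59.4, 89.9, 63.8 and 70.9% in kindling sham rats, 66.2, 66.4, 87.6 and 46.3% in kindling seizure rats, and 45.6, 47.1 and 47.2% in kainic acid seizure rats. Kainic acid sham rats ran from 45.4 to 71.4% with a median of 65.9%. The fourth (6 windows, lead 13154001) reached an r of 0.8 with 0 windows outside the stretch. The fifth (6 windows, lead 11478001) did so with 4 on the rest of chromosome 20 and 1 elsewhere. The sixth (5 windows, lead 12164001) was the weakest, with a mean absolute r of 0.557, and its lead ran from 44.4 to 61.1% over the rats.

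Seizure and sham rats of the kainic acid model were compared by a test, since the rule that chose the stretch does not name that contrast. That rule sets kindling sham rats against the other groups, kainic acid rats among them, so the test is not independent of the choice. With limma over all 84600 variable windows, 0 of the 234 windows in the stretch passed an adjusted p of 0.05 (genome-wide 0%, smallest adjusted p in the stretch 0.999948). At an unadjusted p under 0.05 there were 13 (5.56%), 5 higher and 8 lower in seizure rats, against 3.54% genome-wide. That count rested on single rats: it was 5 without kainic acid seizure rat 3, 7 without seizure rat 1 and 8 without kainic acid sham rat 5. It was 5 with the replicate number as a block. Other settings changed the windows tested as well, so their counts do not compare directly. The count was 19 of 192 windows with kainic acid rats only, 20 of 403 with no range filter and 15 of 265 with windows of 500 bp. It was 13 of 198 with windows of 2000 bp, 13 of 181 with 5 or more cytosines and 11 of 141 with a range of 10 points. With M values it was 12 of 234. Genome-wide shares for these settings are not given here. Of 2195 cytosines with a range of at least 10 points, 0 passed (genome-wide 5, or 0.000624%), and 97 had an unadjusted p under 0.05 (4.42%, against 3.82% genome-wide). Kainic acid seizure against kindling seizure rats gave 0 windows in limma as well (genome-wide 0%). At an unadjusted p under 0.05 there were 21 of 234 (8.97%), against 3.79% genome-wide. Values of kindling rats took part in the choice of the stretch, so nothing is read from that count.

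None of the differences named next passed the adjusted threshold, so they are values and not calls. The smallest p in the kainic acid contrast belonged to the window at 13026001 inside the GRCr8 length of Pcnt. Kainic acid sham rats ran from 76.0 to 93.8% with a median of 89.96%, and seizure rats had 65.1, 76.1 and 63.1%, a difference of -17.5 points (SE 5.01, limma unadjusted p = 0.0026). The window at 13154001 had been noticed in earlier results of these data for a difference between the models. No such difference between the seizure groups was called here. In the kainic acid contrast this window differed by -14.4 points (SE 4.55, limma unadjusted p = 0.00533), with seizure rats at 60.9, 75.4 and 61% and sham rats from 71.8 to 92.9%. In both, seizure rats 1 and 3 were below every kainic acid sham rat and rat 2 was within their range. Kindling sham rats overlapped the kainic acid seizure rats here, at 68.8, 59.9, 86.8 and 67.4% in the first and 65.3, 59.2, 74.5 and 60.7% in the second.

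The windows at 12158001 and 11794001 differed by -14.1 and -9.43 points, and that at 12056001 by -8.23 points (-4.98 without kainic acid seizure rat 3). The window at 12813001, with 25 cytosines, averaged 26.1% ± 1.04 (SD, n = 7) over kainic acid sham rats, and seizure rats had 32.4, 26.5 and 32.2%, a difference of 4.25 points (SE 1.36, limma unadjusted p = 0.00583). It held none of the wide cytosines, and kindling rats had 23.5 to 27.2% there. The other 4 windows with the smallest p among those higher in seizure rats, at 11138001, 12081001, 12349001 and 12445001, differed by 2.77 to 9.66 points. The smallest of these, at 12349001, was 1.81 points without seizure rat 3.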

How the data were processed

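Methylation of hippocampal DNA from 18 rats was taken from 1 deposited table of beta values. The authors deposited a fraction (0 to 1) per cytosine, strand and rat, on rn6, with 0 missing values. Per the submitters' processing notes, the tools were Bismark, Bowtie2, methylKit, Trim Galore and FastQC, with no version, role or coverage minimum stated. The table holds no read counts, so depth is unknown and no interval is given for a single value. Each column was assigned through the library name of its sample, and 0 columns remained.

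Fractions were expressed in percent and averaged in windows of 1000 bp with at least 3 cytosines. Windows with a range of at least 5 points over the rats, and cytosines with at least 10 points, were tested genome-wide with limma 3.58.1 (R 4.3.3) in 1 fit over 4 groups on the fraction scale, with a variance trend and Benjamini-Hochberg adjustment over all units. Mean levels were compared by exact permutation, and correlations by 100000 permutations (Python 3.11.15, scipy 1.17.1). The scripts were tested on simulated data. Promoter windows were placed where at least 9 CpGs coincided with measured CpGs, and the best other placement reached 8. The members, lists and tests were chosen with earlier results of these data known. Windows named are, for each block, the lead and the widest members, the 8 with the largest kindling sham difference and 4 more for sham rats 2 to 4, the 5 smallest p in each direction in the kainic acid contrast, and the windows at the ends. The single CpGs named were chosen after their values were seen. Alternatives were other window lengths, cytosine minimums, range filters, M values (levels held between 1 and 99%), a replicate block, kainic acid rats only, other tree settings and leaving out each rat.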

Additional observations from a re-analysis of the deposited data

Results flagged for a closer look

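Within groups of 4 or 7 rats, 165 sets of values named above were examined, and in 14 the highest or lowest rat lay far from the nearest other rat for the range of its group. By chance about 1 in 20 sets would do so if they were unrelated and not chosen by their values. These were chosen by their values, and some windows share a CpG with another set, so the number is a description. Kindling seizure rat 3 stood alone in its group at the window at 11478001 (92.0%, next 78.7%) and at the CpGs at 11478097 (80.3%, next 39.9%), 11869018 (100%, next 3.85%) and 11969821 (1.67%, next 93%). Kindling seizure rat 4 did so at the window at 11277001, between Gatd3a and Icoslg (81.8%, next 67.1%), and at its CpG at 11277847 (45.5%, next 2.94%). Kindling sham rat 2 stood alone at 11869018 (96.7%, next 7.69%). Kainic acid sham rat 5 was the lowest of its group at the windows at 11718001 (49.1%, next 62.9%) and 12164001 (44.4%, next 50.6%).

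The other gaps were small in points. They were kindling seizure rat 1 at 11447246 (2.13%), and among kainic acid sham rats, rat 4 at 11480020 (86.5%), rat 1 at 11688412 (98.1%), and rat 3 at 12145590 (85.9%) and 12205434 (91.6%).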

How the results depend on the processing

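In the kainic acid contrast and in that between seizure groups, 0 windows of the stretch were called under every alternative run, with the replicate block (replicate number as a factor) and with each rat left out included. For cytosines the count was 0 under every alternative except with no range filter, where 1 was called (228 genome-wide). The replicate numbers are not known to pair animals. Same-numbered rats correlated at r = -0.11 to 0.16 in their deviations in kindling and at -0.04 to -0.02 in kainic acid. The kainic acid difference of the mean level stayed between 0.115 and 0.237 points with each rat left out, and was 0.085 over windows and 0.117 over variable cytosines. Windows with kindling sham rats 10 points or more away numbered 10, and 13, 5 and 4 with windows of 500 bp, of 2000 bp and of 5 or more cytosines, and 6 to 16 with a rat left out. For sham rats 2 to 4 the 17 became 18, 11 and 10, and 11 to 17. The window at 11447001 was 27.1 points higher in its first 500 bp and fell by 0.674 in its second, where no wide CpG lay. Blocks numbered 6, with 2 at a range of 25 points, 2 with Spearman's rho, 4 and 6 at heights of 0.4 and 0.6, 8 at a range of 10 points and 4 to 6 with a rat left out. The groups of wide cytosines numbered 8, with 4 by Spearman's rho and 5 to 9 with a rat left out (5 without kindling seizure rat 1). Unknown depth limits every single level, and causes of these shifts were not tested.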
